A study of Mus musculus with 2 samples.

Results

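*Nanos2*, *Nanos3*, *Dnd1*, *Dazl*, *Cpeb1*, *Tex14* and *Stk31* are 7 genes whose proteins act on RNA or on the fate of germ cells, and they are described here in nuclei of the mouse testis at E14.5, embryonic days counted from the vaginal plug. They were chosen by name, and each of the 7 symbols was found once among the 32285 genes of the deposited table. Whole testes came from embryos that carried both *Nr5a1-cre*, a Cre expressed in steroidogenic and supporting cells, and the Cre reporter *Rosa-tdTomato*, and no embryo without them was profiled. The number of embryos behind the pool is unknown here. The 10x multiome assay read RNA and open chromatin (ATAC, in which a transposase cuts accessible DNA) from the same nuclei, with 1 library for each assay. Every value therefore describes 1 sample, no p-value was derived, and the exact 95% intervals cover counting error only.

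Fetal male germ cells stop dividing and enter mitotic arrest instead of meiosis, and RNA-binding proteins hold much of this programme. Nanos proteins bring target RNAs to the CCR4-NOT deadenylase, which shortens poly(A) tails. DND1 binds RNA together with NANOS2, DAZL promotes translation of germ cell RNAs, and CPEB1 controls poly(A) tail length and translation. TEX14 is needed for the intercellular bridges that join germ cells after incomplete division, and STK31 carries a Tudor domain and a kinase-like domain.

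Coordinates of the genes are on mm10 (GRCm38). *Nanos2* (ENSMUSG00000051965) spans chr7:18987400-18988962 on the plus strand and is overlapped on the other strand by the antisense gene *Gm45058*. *Nanos3* (ENSMUSG00000056155) spans chr8:84173731-84185217 on the minus strand, and in GENCODE vM21 this span is set by a long transcript that also covers the microRNA genes *Mir181c* and *Mir181d*. The short *Nanos3* transcripts start at 84176552, and a UMI (unique molecular identifier, 1 counted RNA molecule) of the table cannot be assigned to either form. *Dnd1* (ENSMUSG00000044595) overlaps the end of *Wdr55*, which lies on the other strand. *Dazl* (ENSMUSG00000010592) spans chr17:50279395-50293636 on the minus strand, and no other annotated gene overlaps it. *Cpeb1* (ENSMUSG00000025586) spans chr7:81347026-81455465 on the minus strand and holds the pseudogene *Rpl7a-ps9*. *Tex14* (ENSMUSG00000010342) spans chr11:87405065-87555823 on the plus strand, starts head to head with *Rad51c* and holds several small RNA genes. *Stk31* (ENSMUSG00000023403) spans chr6:49395604-49469501 on the plus strand and overlaps *Gm17060*. Counts of overlapping genes are uncertain where the authors' counting could split their reads.

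The sequences before 6 of the starts are shown because open chromatin at them differed between germ-like and other nuclei, as described below. They come from RefSeq promoter windows on GRCm38.p6, in which 6 of the 7 genes were matched. Capitals mark the letters of 5 motifs searched on both strands, namely the E-box CACGTG, the E2F motif GCGGGAA, the CCAAT box CCAAT, the GC box GGGCGG and the cyclic AMP response element TGACGTCA. Bases are given 5′ to 3′ along the gene, counted from the RefSeq start, and stop at 30 bases of any annotated exon.
Stk31, chr6:49395354-49395633, plus strand, bases -250 to 30: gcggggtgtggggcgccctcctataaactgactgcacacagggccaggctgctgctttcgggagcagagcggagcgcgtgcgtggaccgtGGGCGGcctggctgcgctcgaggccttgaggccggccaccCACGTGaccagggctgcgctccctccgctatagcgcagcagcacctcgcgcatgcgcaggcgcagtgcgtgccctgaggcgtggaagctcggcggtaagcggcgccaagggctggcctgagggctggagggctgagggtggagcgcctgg
Cpeb1, chr7:81454729-81455008, minus strand, bases -250 to 30: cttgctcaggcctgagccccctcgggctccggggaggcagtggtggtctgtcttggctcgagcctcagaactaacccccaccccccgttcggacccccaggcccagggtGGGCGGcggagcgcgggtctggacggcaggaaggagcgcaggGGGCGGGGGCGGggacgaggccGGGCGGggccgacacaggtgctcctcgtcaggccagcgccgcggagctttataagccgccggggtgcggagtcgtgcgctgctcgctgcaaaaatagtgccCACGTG
Dazl, chr17:50293607-50293870, minus strand, bases -250 to 14: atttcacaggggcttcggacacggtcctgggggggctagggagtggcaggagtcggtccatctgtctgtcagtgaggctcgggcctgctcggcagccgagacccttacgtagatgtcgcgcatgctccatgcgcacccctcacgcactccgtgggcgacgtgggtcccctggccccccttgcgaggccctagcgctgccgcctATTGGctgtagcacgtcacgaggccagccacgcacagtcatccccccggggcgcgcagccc
Tex14, chr11:87404925-87405094, plus strand, bases -140 to 30: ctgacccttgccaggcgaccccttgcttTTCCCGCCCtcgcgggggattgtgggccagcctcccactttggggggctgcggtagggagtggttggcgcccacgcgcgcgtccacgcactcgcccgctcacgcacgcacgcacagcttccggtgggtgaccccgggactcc
Nanos3, chr8:84176523-84176802, minus strand, bases -250 to 30: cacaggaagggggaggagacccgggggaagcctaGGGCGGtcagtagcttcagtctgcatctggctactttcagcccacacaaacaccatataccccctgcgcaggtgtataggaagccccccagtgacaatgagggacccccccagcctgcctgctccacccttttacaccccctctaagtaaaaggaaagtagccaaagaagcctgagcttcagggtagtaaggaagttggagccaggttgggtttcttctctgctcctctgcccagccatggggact
Nanos2, chr7:18987274-18987429, plus strand, bases -250 to -95: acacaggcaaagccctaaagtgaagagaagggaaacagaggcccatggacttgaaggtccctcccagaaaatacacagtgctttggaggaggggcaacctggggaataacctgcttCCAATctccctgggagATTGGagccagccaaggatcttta

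The windows differed in CpG dinucleotides, the sites of DNA methylation. Over 280 bases, *Cpeb1* held 28 CpG, *Stk31* 27, *Dazl* 25 and *Tex14* 19, against a median of 6 over all 32851 RefSeq windows of that length. *Nanos3* held 3 and *Nanos2* held 0, a count that 6.27% of all windows share. The *Stk31* window had an E-box at base -120 and a GC box at base -160. *Cpeb1* had an E-box that begins at base 25 and 4 matches to the GC box, and *Nanos3* had 1 GC box. *Nanos2* had a pair of CCAAT boxes in opposite orientation, *Dazl* had 1, and *Tex14* had an E2F motif that overlaps a GC box. Of all windows, 34.7% held a GC box, 36.1% a CCAAT box, 6.79% an E-box, 4.29% an E2F motif and 1.74% the response element, which no member window held. A match is a description of the letters and not of binding.

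The library held 9833 barcodes with 122049390 UMIs and 38243814 cuts at 109215 peaks, and 7197 nuclei were kept after filters on quality and doublet score. Joint clustering of both assays gave 13 clusters in 12 classes, with the RNA of the 7 genes kept out of both the clustering and the naming. Peaks near the 7 genes were not left out of the clustering. One cluster of 987 nuclei (13.7%) was germ-like, and all 8 of its markers were higher there than in other nuclei, by 3.97-fold for *Pou5f1* to 133-fold for *Tdrd9*. Germ-like nuclei were deep, with a median of 15614 UMIs and 20841603 UMIs in all. Markers of other classes were also read in them, the 6 Sertoli-like markers summing to 38.0% of their level in Sertoli-like nuclei (17.5% without *Dmrt1*, the 1 of them that was higher in germ-like than in other nuclei), the 6 progenitor-like ones to 16.9% and the 5 immune-like ones to 0.51%, and their part in the results was not tested. Part of the germ-like class did not keep its label in chromatin. Clustered on chromatin alone, 99 of its nuclei fell outside the germ-like class, 31 of them in the Sertoli-like one and 12 among nuclei whose chromatin cluster had no name. Those 99 had a median of 33921 UMIs, held 27.5% of the UMIs of the class, and carried 202 CPM (UMIs of a gene in a class, counted per 1000000 UMIs there) of the interstitial marker *Pdgfra* against 60.6 CPM in the 885 that were germ-like in RNA, in chromatin and jointly. The Leydig cell gene *Cyp17a1* was also higher in them (235 against 122 CPM), the Sertoli cell gene *Amh* was 27.6 against 20.7 CPM, and the endothelial gene *Pecam1* was lower (26.9 against 44.9 CPM). Every member was lower in the 99 than in the 885, as with 352 against 861 CPM for *Dazl* and 1.92 against 5.43 CPM for *Nanos2*. Whether these nuclei are doublets was not tested, and the main results are also given without them.

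The first question was whether the RNA of each member marked germ-like nuclei. *Dazl*, *Cpeb1*, *Tex14* and *Stk31* were abundant there and between 56.7-fold and 70.9-fold above other nuclei, *Nanos2* and *Dnd1* were scarce but enriched, and *Nanos3* was hardly enriched. Of the 7 genes, 6 were at least 4-fold higher in germ-like nuclei, where 10.9% of the 19418 genes tested were that much higher and 4.61% that much lower. The same 6 were past 2-fold, where 20.1% of genes were. The median log2 ratio of the members was 5.70 and that of all genes 0.04, with 1 CPM added to each level.

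*Tex14*, the bridge gene, had the most UMIs of the set. It gave 1462 CPM in germ-like nuclei from 30465 UMIs, and between 12.8 CPM (surface epithelium-like) and 123 CPM (erythroid-like) in the 11 other classes, with a median of 21.1 CPM. Germ-like nuclei were 61.1-fold (57.8 to 64.5) above all others; erythroid-like nuclei, the next class, were 11.9-fold (9.09 to 15.8) below them. *Dazl*, the translation regulator, gave 721 CPM in germ-like nuclei and 8.89 to 89.0 CPM elsewhere, a ratio of 58.2 (53.9 to 62.8). *Stk31* gave 599 CPM against 4.85 to 82.2 CPM, a ratio of 56.7 (52.2 to 61.7). *Cpeb1* gave 443 CPM against 2.65 to 52.5 CPM and had the largest ratio of the set, 70.9 (63.7 to 79.0).

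For these 4 genes the ratios depended on the nuclei counted as germ-like. With classes made from chromatin alone they were between 19.4 and 20.7, with 43.2 CPM of *Dazl* in the other nuclei in place of 12.4. In nuclei that kept their side in all 3 clusterings they were between 90.4 and 114, and with Scrublet's automatic doublet threshold between 103.6 (*Stk31*) and 159.8 (*Cpeb1*). Under each of these class sets 6 members passed 4-fold, where 11% of genes did so with the chromatin classes. The share of genes was not counted for the other sets.

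*Nanos2*, the gene of the male germ cell fate, was the scarcest. It gave 93 UMIs or 4.46 CPM (3.60 to 5.47) in germ-like nuclei and 11 UMIs or 0.20 CPM in all other nuclei together, a ratio of 22.8 (12.2 to 47.3). Of the 11 other classes, 5 had no *Nanos2* UMI and none had more than 4. Of these classes, 3 could not be told apart from germ-like nuclei at this depth. Germ-like over pericyte-like nuclei was 3.07 (0.54 to 123), and the upper limits at 0 UMIs in immune-like (5.31 CPM) and erythroid-like nuclei (8.42 CPM) lay above the germ-like level. *Dnd1*, on chromosome 18, gave 182 UMIs or 8.73 CPM in germ-like nuclei and 0.58 to 6.85 CPM in the other classes, a ratio of 6.47 (4.93 to 8.57) against them all. The next 3 classes could not be told apart from germ-like nuclei, erythroid-like and pericyte-like on 3 *Dnd1* UMIs each and immune-like on 2, where germ-like over immune-like nuclei was 3.03 (0.83 to 25.2).

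UMIs of *Nanos3*, which cannot be assigned to its short or its long transcripts, were spread over the testis. The gene gave 181 UMIs or 8.68 CPM (7.47 to 10.0) in germ-like nuclei and 362 UMIs or 6.43 CPM in the others, a ratio of 1.35 (1.12 to 1.62). In surface epithelium-like nuclei it reached 12.6 CPM (9.74 to 16.1), above the germ-like level, the ratio of germ-like to surface epithelium-like being 0.69 (0.52 to 0.93). In nuclei that kept their side in all 3 clusterings the germ-like level was 9.74 CPM, 1.49-fold (1.22 to 1.81) above other nuclei. No ratio to surface epithelium-like nuclei was made for that set, so whether they lie above it is not known. Contractile-like nuclei gave 10.1 CPM and mesonephric mesenchyme-like nuclei 9.60 CPM, and neither differed from germ-like nuclei beyond counting error. Sertoli-like nuclei gave 3.76 CPM and Leydig-like nuclei 2.89 CPM, less than the germ-like class by 2.31-fold (1.62 to 3.37) and 3.01-fold (1.97 to 4.77). Within the order of all 12 classes, only the step from progenitor-like (6.65 CPM) down to Sertoli-like nuclei exceeded counting error.

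**Figure D1:**
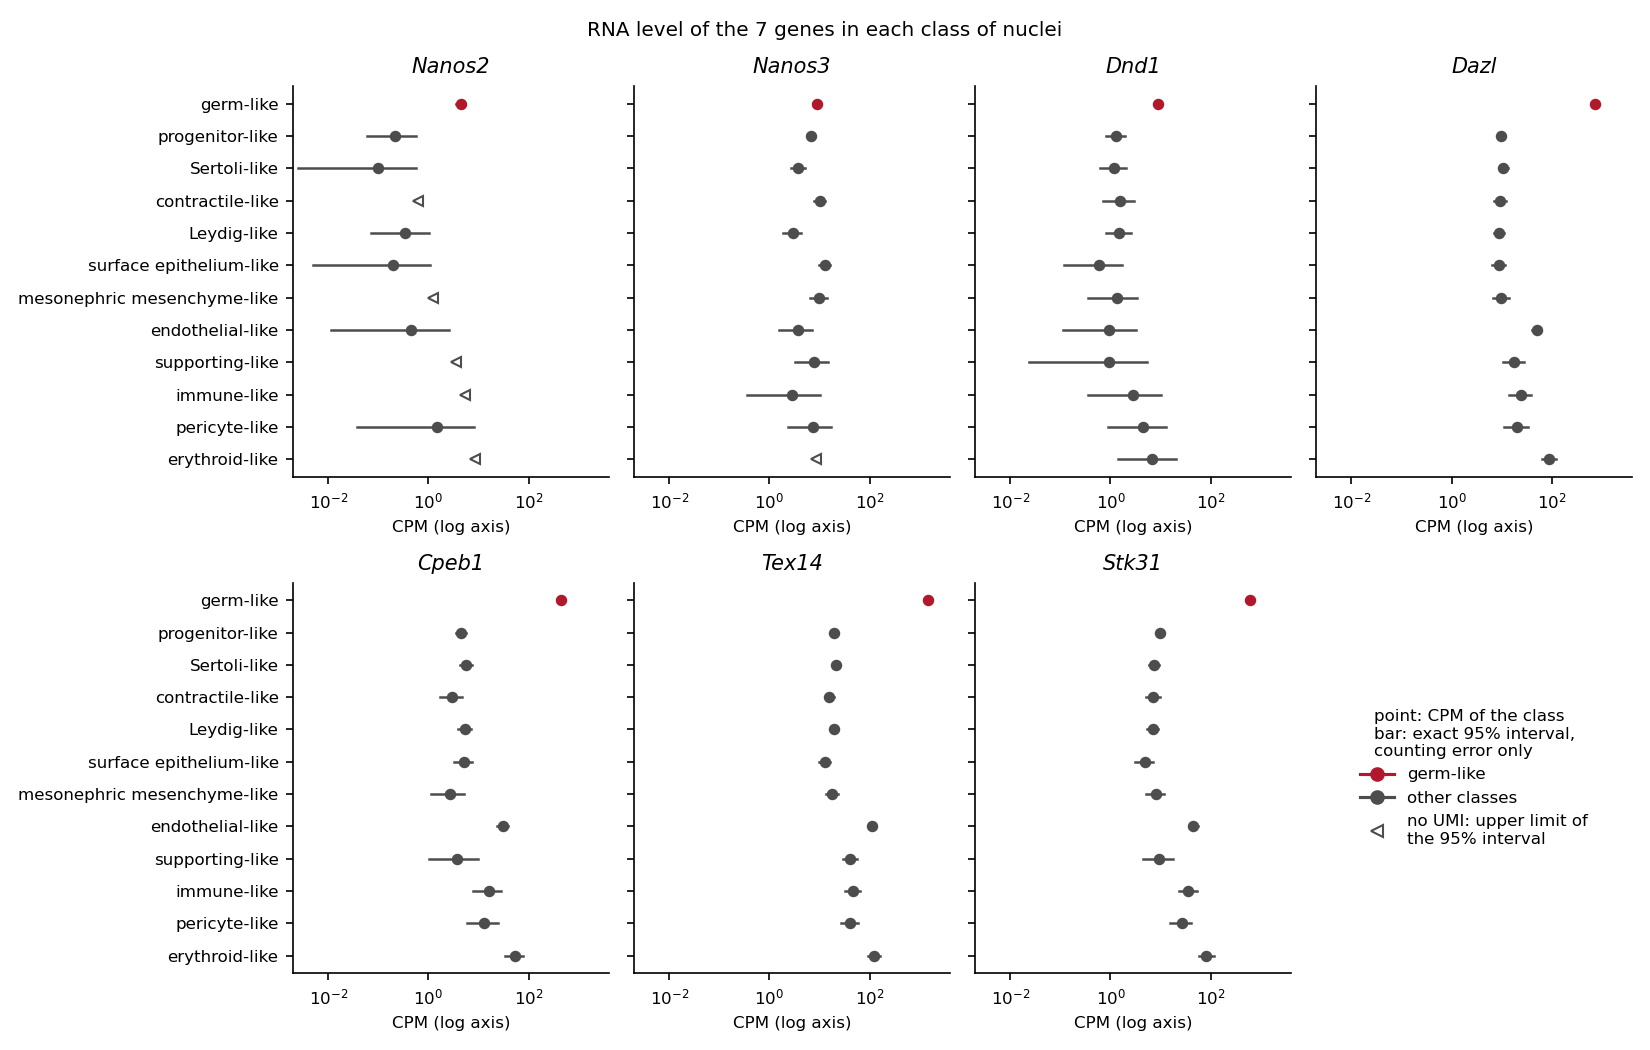
RNA level of each of the 7 genes (x axis, CPM on a log scale) in 12 classes of nuclei (rows). Points are class levels with exact 95% intervals for counting error, and open triangles give the upper limit where a class had no UMI. Germ-like nuclei lie far to the right for Dazl, Cpeb1, Tex14 and Stk31, at 443 to 1462 CPM, whereas Nanos3 at 8.68 CPM lies among the other classes.

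Between genes, the order of levels depended on the length used. Per kb of exon, germ-like nuclei had 292 CPM of *Tex14*, 189 of *Dazl*, 185 of *Stk31*, 106 of *Cpeb1*, 9.40 of *Nanos3*, 3.62 of *Dnd1* and 2.85 of *Nanos2*. Per kb of the whole gene, intron included, *Dazl* led with 50.6 CPM, followed by *Tex14* with 9.70, *Stk31* with 8.11 and *Cpeb1* with 4.08. *Dnd1* (3.43) and *Nanos2* (2.85) then stood close to *Cpeb1*, and *Nanos3* was last with 0.76. Nuclear RNA is rich in unspliced molecules and intronic reads were counted, so neither length stands for every gene.

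The low UMIs of the 4 abundant genes outside germ-like nuclei had nearly the make-up of the germ-like ones. Among the UMIs of the 4, *Tex14* made up 45.3% in germ-like and 45.0% (43.2 to 46.8) in all other nuclei, *Dazl* 22.4% and 23.3% (21.8 to 24.9), *Stk31* 18.6% and 19.9% (18.5 to 21.4), and *Cpeb1* 13.7% and 11.8% (10.6 to 13.0). *Cpeb1* was thus lower beyond counting error in the pooled others, and within classes its interval lay below the germ-like share in progenitor-like (10.4%), contractile-like (8.33%), mesonephric mesenchyme-like (6.90%) and supporting-like (5.26%) nuclei. *Stk31* was above it in progenitor-like (22.3%) and immune-like (29.4%) nuclei, and *Tex14* below it in erythroid-like nuclei (35.5%). These intervals take each UMI as a separate draw and are too narrow where several UMIs come from 1 nucleus. The 4 *Cpeb1* UMIs of supporting-like nuclei all came from 1 nucleus, so these class differences in make-up are descriptions. The summed level of the 4 was 0.98% to 1.40% of the germ-like level in the 6 largest other classes, and higher in small classes, up to 7.29% in endothelial-like and 10.8% in erythroid-like nuclei. Few nuclei carried these UMIs, with 54 UMIs of *Tex14* in 6 and 23 of *Cpeb1* in 2 of the 47 erythroid-like nuclei, and 67 of *Cpeb1* in 9 of the 97 endothelial-like ones. No free RNA was removed from these counts, and its part in the levels was not tested.

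**Figure D2:**
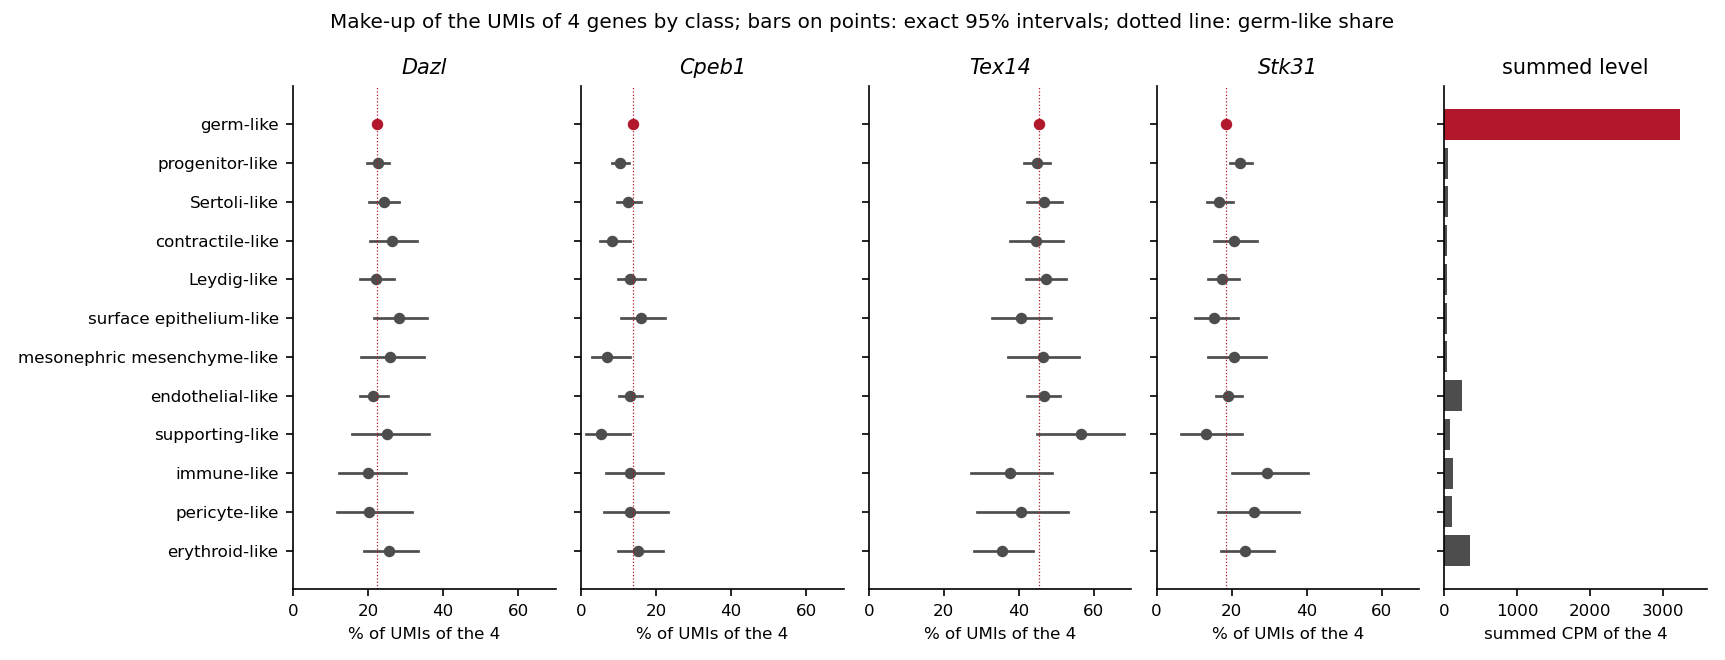
Share of each of Dazl, Cpeb1, Tex14 and Stk31 among the UMIs of the 4 (x axes, percent) and their summed CPM (right panel, bars from 0) by class. Points carry exact 95% intervals, and the dotted lines give the germ-like shares, such as 45.3% for Tex14, which most classes match within their intervals although their summed level is at most 10.8% of the germ-like one.

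At equal depth the share of nuclei with a UMI separated the genes in the same way. With each nucleus thinned to 2000 UMIs, *Tex14* was found in 93.2% of germ-like and 3.19% of other nuclei, *Dazl* in 81.2% and 1.73%, *Stk31* in 72.3% and 2.10%, and *Cpeb1* in 60.0% and 1.01%. *Dnd1* was found in 2.34% and 0.41%, *Nanos3* in 2.64% and 1.66%, and *Nanos2* in 1.32% and 0.03%. Unthinned, where median depth differed, the shares in germ-like nuclei ran from 8.21% for *Nanos2* to 99.5% for *Tex14*, and in other nuclei from 0.18% for *Nanos2* to 11.1% for *Tex14*.

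The next question was whether the members were found together in single germ-like nuclei. Thinned to 5000 UMIs, 969 of the 987 nuclei remained, and all of *Dazl*, *Cpeb1*, *Tex14* and *Stk31* were found in 726 of them (74.9%, 72.1 to 77.6). For 0 of the 21 pairs did the interval of the share of nuclei with both genes lie above the product of the single shares, but 15 of them could not have passed even with full overlap, at these single shares. *Dazl* and *Cpeb1* met in 80.0% of nuclei (77.3 to 82.5), with a product of 79.1%. *Nanos2* was found in 22 nuclei and *Nanos3* in 39, and none held both, which allows a share of up to 0.38% where the product was 0.09%. *Nanos2* and *Dnd1*, whose proteins act together, met in 1 nucleus. Unthinned, *Nanos2* and *Dnd1* met in 20 of 987 nuclei (2.03%, 1.24 to 3.11), with a product of 1.31%. *Nanos2* and *Nanos3* met in 19 (1.93%, 1.16 to 2.99), with a product of 1.29%. Both intervals include the product, and unthinned, deep nuclei hold more of every gene.

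Nuclei with a *Nanos2* UMI carried the 4 abundant members at 1.06 to 1.27 times the level of the rest, and the depth did not allow a comparison of *Nanos3* and *Dnd1*. In the 22 nuclei *Dazl* gave 1091 CPM against 857 in the 947 without one, a ratio of 1.27 (1.05 to 1.53). The 99 nuclei that were not germ-like in chromatin, lower in both *Nanos2* and *Dazl*, were not left out of this split. Its ratios are not given for the 885 nuclei. *Cpeb1* (1.24), *Tex14* (1.15) and *Stk31* (1.06) had intervals that reached 1 or below. *Nanos3* had no UMI in the 22 nuclei and 39 in the others, so that 1 member passed 1.5-fold where 51.2% of genes did, and its ratio could be as high as 4.27. *Dnd1* rested on 1 UMI in the 22 nuclei, with a ratio of 1.08 (0.027 to 6.35). Among the genes with the largest ratios between these nuclei were *Hdac7* (3.84, 1.79 to 7.33), *Dach2*, *A430073D23Rik* and *Babam1* upward, and *Dlc1*, *Fam155a*, *Zeb2*, *Tshz2* and *Rgl1* downward, the last 5 on 1 or 2 UMIs each. A nucleus without a *Nanos2* UMI is not one without its RNA.

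Over the same thinned nuclei the abundant genes varied more than counting alone gives. The variance of UMIs over their mean was 2.06 for *Tex14*, 2.05 for *Cpeb1*, 1.47 for *Stk31* and 1.43 for *Dazl*, where Poisson counts give 1. Without the nuclei that were not germ-like in all 3 clusterings it was 1.83, 1.95, 1.58 and 1.40. No interval was made for these values, and the mean UMIs differed, as with 8.79 for *Tex14* and 2.83 for *Cpeb1* in this set. The genes are therefore not ranked by their spread. Pearson's r between pairs of the 4 across 969 nuclei of 1 library lay between 0.13 and 0.24, and between 0.05 and 0.16 across 869 of the 885 nuclei, with *Dazl* and *Cpeb1* highest in both sets. The points share their library and are equal in depth, and these r are descriptions.

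A further question was how the members stood to the cell cycle, since germ cells leave it at about this stage. Germ-like nuclei were ranked by the share of their UMIs in 97 genes of S and G2M phase, and the upper 329 nuclei were set against the lower 329. The share is a range and not a type, with a median of 0.68%, a lower limit of 0.62% and an upper limit of 0.75% of UMIs, and 161 and 134 nuclei lay within 5% of these limits. *Mki67* (4.73-fold) and *Top2a* (6.63-fold), both proliferation genes and part of the ranking, show its spread. *Cpeb1* was 502 CPM in the upper and 360 CPM in the lower 329 nuclei, a ratio of 1.39 (1.33 to 1.47) and the clearest of the members. *Dazl* was 1.2 (1.16 to 1.25) and *Tex14* 1.13 (1.10 to 1.16), also higher in the upper nuclei beyond counting error. *Stk31* (0.97, 0.93 to 1.01), *Dnd1* (1.08, 0.75 to 1.58) and *Nanos3* (0.89, 0.62 to 1.29) had intervals that include 1. *Nanos2* was 31 against 20 UMIs, 1.52-fold (0.84 to 2.82), and was the 1 member past 1.5-fold, where 20% of genes were in either direction, 8.27% higher and 11.7% lower. That call did not hold with Scrublet's automatic threshold (1.005), with S genes alone (1.04) or without nuclei over 50000 UMIs (1.47), while *Cpeb1* was past 1.5-fold in the first (1.53) and the last (1.54). *Spocd1* and *Piwil4*, which act in DNA methylation of transposons, went the other way, at 0.33 (0.26 to 0.41) and 0.53 (0.48 to 0.59). The upper and lower sets held 44 and 37 of the 99 nuclei that were not germ-like in chromatin. In the 885 nuclei without them the ratio of *Cpeb1* was 1.56 (1.48 to 1.65), past 1.5-fold. That of *Stk31* was 1.05 (1.001 to 1.10), close to 1. These intervals, and those between and within clusters below, take each UMI as a separate draw. They are too narrow for the abundant genes, whose UMIs varied more between nuclei than Poisson counts. Ratios of these genes near 1 are therefore descriptions.

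A finer clustering at resolution 0.6 cut the germ-like nuclei into clusters of 599 and 388 nuclei. The larger one was led by *Lhx1* and *Eya2* and had more *Mki67* (2.66-fold), and the smaller one was led by *1700054O05Rik*, *St18* and *Spocd1* and had more *Piwil4* (165 against 60.7 CPM) and *Dnmt3l* (5.87 against 0.72 CPM). The RNA of these genes could take part in the clustering, whereas that of the members did not. *Nanos2* was 73 UMIs (5.85 CPM) in the larger and 20 UMIs (2.39 CPM) in the smaller cluster, 2.44-fold higher (1.47 to 4.23). *Cpeb1* was 521 against 325 CPM, 1.60-fold (1.53 to 1.68). These were the 2 members past 1.5-fold, where 28.1% of genes were in either direction, 13.2% higher in the larger cluster and 14.9% lower. *Dazl* was 1.09-fold (1.06 to 1.13) higher in the larger cluster, and *Tex14* was lower there at 0.88 (0.86 to 0.90). *Stk31* was 0.96 (0.92 to 0.99), and the intervals of *Nanos3* (0.92) and *Dnd1* (1.12) included 1. In the 885 nuclei *Nanos2* was 2.82-fold (1.66 to 4.98), *Cpeb1* 1.92-fold (1.83 to 2.01) and *Dazl* 1.31-fold (1.26 to 1.35), and *Tex14* was 1.02-fold, with an interval that includes 1. *Stk31* changed sides there, at 1.13 (1.09 to 1.18), and *Dnd1* was 1.42-fold (1.01 to 2.0).

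The same ranking was made within each cluster. Inside the larger cluster, the upper over the lower 199 nuclei gave 1.45 (1.40 to 1.51) for *Tex14*, 1.34 (1.26 to 1.42) for *Cpeb1* and 1.32 (1.25 to 1.38) for *Dazl*. *Stk31* stayed at 0.99 (0.94 to 1.05). *Nanos2* was 15 against 27 UMIs there, a ratio of 0.64 (0.31 to 1.24). Inside the smaller cluster, the upper over the lower 129 nuclei gave 1.15 for *Dazl* and *Stk31*, 1.13 for *Cpeb1* and 1.09 for *Tex14*, each with an interval above 1. *Nanos2* was 10 against 3 UMIs there, 3.14-fold (0.81 to 17.8), so neither cluster showed a difference beyond counting error.

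**Figure D3:**
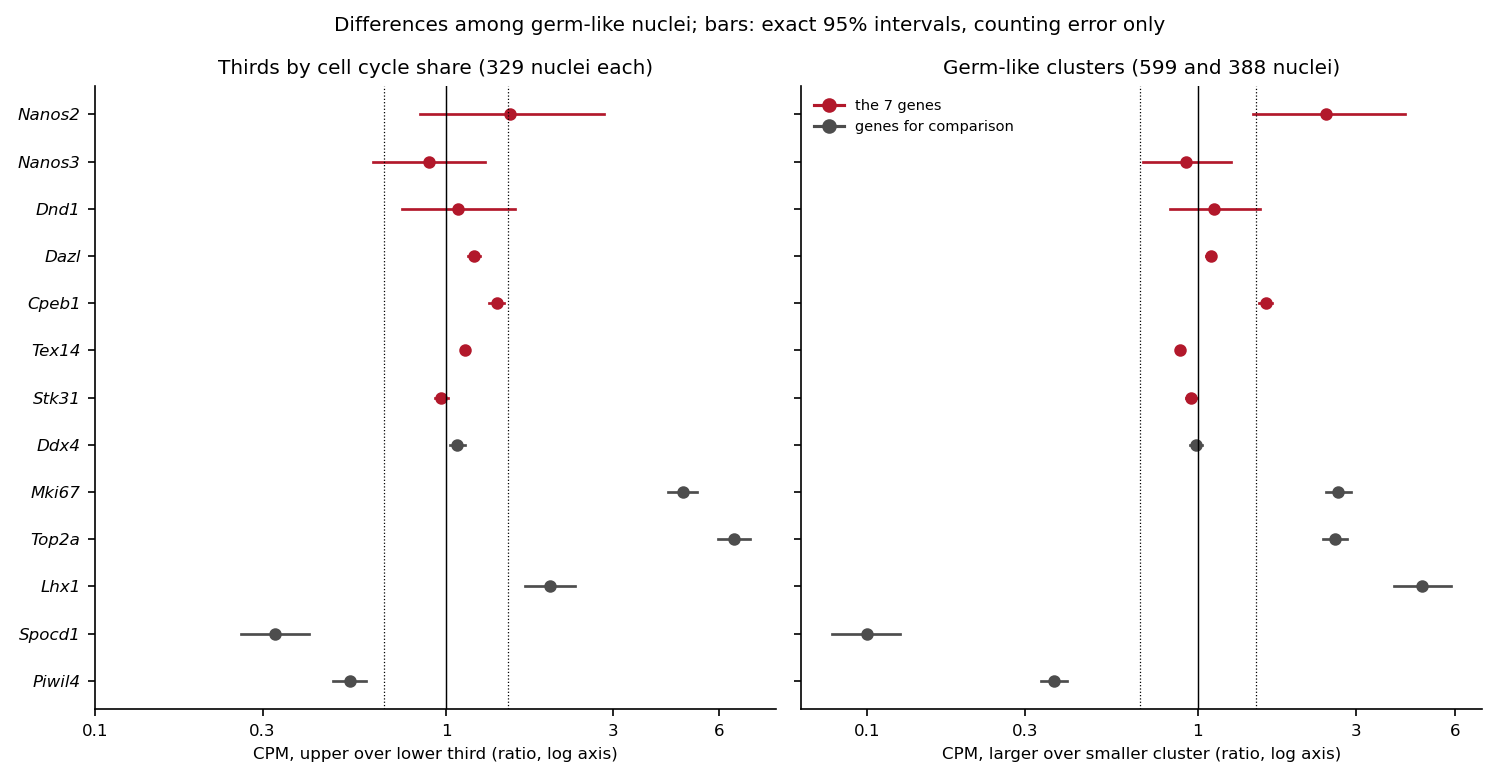
Ratios of CPM among germ-like nuclei (x axes, log scale) for the 7 genes and 6 genes for comparison, between the upper and lower 329 nuclei by cell cycle share (left) and between 2 clusters (right). Bars are exact 95% intervals, the solid line marks 1 and dotted lines 1.5-fold. Cpeb1 lies right of 1 in both panels, at 1.39 and 1.60, and Nanos2 at 2.44 between clusters, while Stk31 stays near 1.

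Open chromatin at the starts was compared between classes made from RNA alone, 994 germ-like nuclei with 4831583 cuts at peaks and 6203 others with 22163378. Cuts mostly come in pairs from 1 fragment, so their intervals are too narrow. Within 1 kb of the start in the deposited table, 6 members had a peak and 4 of them were at least 2-fold more open in germ-like nuclei, where 10.7% of promoters were. *Stk31* stood out, with 221 cuts in germ-like and 26 cuts in other nuclei (45.7 and 1.17 CPM, here of all cuts at peaks of the class), a ratio of 39.0 (25.9 to 61.0). *Nanos3* had 103 and 68 cuts, 6.95-fold (5.07 to 9.58). *Dnd1* was 3.65-fold (2.94 to 4.51) for the summed cuts of 2 peaks, 6.63-fold in the one at the start and 1.62-fold (1.11 to 2.32) in the one 0.95 kb downstream. *Cpeb1* was 2.75-fold (1.95 to 3.86) in a peak centred at -0.86 kb, and 4.39-fold where peaks within 2 kb of the start were counted. The peak at -0.86 kb covers chr7:81455465, the upstream end of the annotated *Cpeb1* span. *Dazl* (1.5, 1.29 to 1.74) and *Tex14* (1.22, 1.07 to 1.39) were nearly as open in other nuclei, at 32.2 and 49.7 CPM of cuts. In nuclei that kept their side in all 3 clusterings *Dazl* was 1.80-fold. *Nanos2* had no peak within 1 kb.

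For *Nanos3* the germ-like to other ratios of the RNA and of the chromatin at the short start differed. Its peak at the short transcripts' start was 6.95-fold more open in germ-like nuclei, and its RNA 1.35-fold higher. The peaks inside the long transcript, at -4.16 kb and -7.36 kb from that start, were 1.29-fold (1.04 to 1.58) and 1.36-fold (1.09 to 1.69). In surface epithelium-like nuclei, where its RNA was highest, the peak at the short start had 17 cuts (13.7 CPM of cuts) against 103 (21.3) in germ-like nuclei. No interval was made for this difference, which rests on few cuts. The other classes had 0 to 7.66 CPM of cuts, the highest on 2 cuts.

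For *Dazl*, *Cpeb1* and *Tex14* the called peaks missed all or part of the 280 bases around the RefSeq start. Seen in the profile of fragment ends, germ-like nuclei had a peak of their own at the *Tex14* start, beside the one shared with *Rad51c* at -0.55 kb. They had another near the RefSeq start of *Dazl*, which lies 728 bases upstream of the start in the deposited table and outside the called peak. Ends within 200 bp of the RefSeq start were therefore counted, a choice made after the profile was seen. At the *Dazl* start 156 ends came from germ-like and 24 from other nuclei, 24.4-fold (15.8 to 39.2) relative to all fragments of each class. At the *Tex14* start they were 107 and 80, 5.02-fold (3.72 to 6.79). *Stk31* was 31.7-fold, *Nanos2* 6.84-fold (31 and 17 ends), *Nanos3* 6.25-fold and *Cpeb1* 4.17-fold. All 6 genes with a RefSeq start passed 2-fold in this window, where 10.2% of 20540 starts did. The width and place of the window decide this for 2 genes: fragments with an end within 500 bp of the start in the deposited table gave 1.66 (1.34 to 2.05) for *Tex14* and 1.27 (1.03 to 1.56) for *Dazl*.

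**Figure D4:**
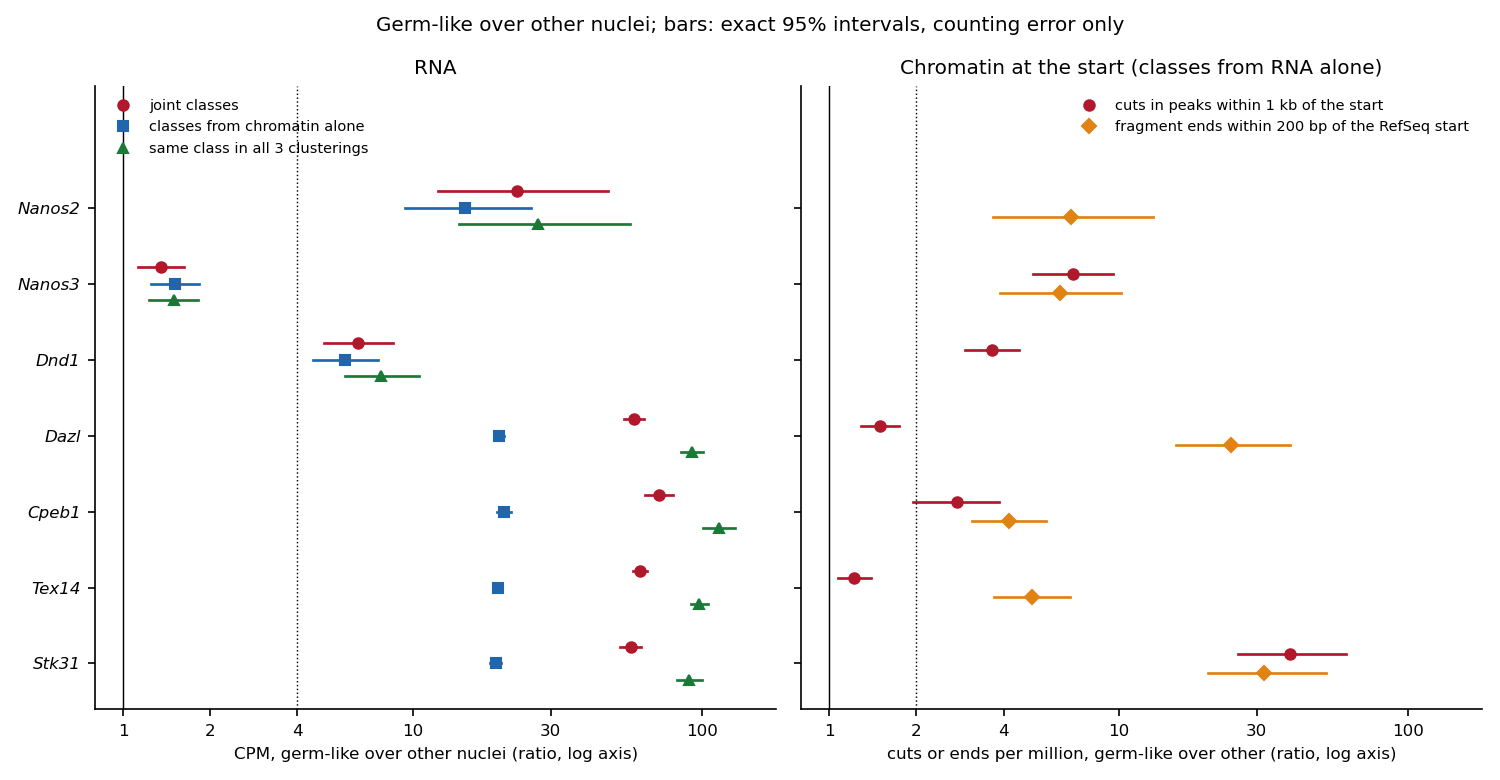
Ratios of germ-like to other nuclei (x axes, log scale) for RNA under 3 sets of classes (left) and for chromatin at the start under 2 ways of counting (right). Bars are exact 95% intervals and dotted lines mark 4-fold and 2-fold. Cuts are scaled to all cuts at peaks of a class and fragment ends to all its fragments, so the 2 ratios of a gene differ in scale. Dazl is 1.5 by cuts in its called peak and 24.4 by ends at its RefSeq start. Nanos3 is the one gene whose RNA stays below 4-fold.

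At the *Nanos2* locus the called peaks at least 2-fold more open in germ-like nuclei lay upstream. No peak was called within 1 kb of the start, although fragment ends within 200 bp of the RefSeq start were 6.84-fold higher. A peak at chr7:18982263-18983227, at -4.65 kb from the start, held 146 cuts in germ-like and 19 in other nuclei, 35.2-fold (21.8 to 60.2), where 12.3% of all peaks were at least 2-fold higher. Peaks at -8.43 kb and -10.4 kb were 5.50-fold and 7.31-fold, and the one 3.59 kb downstream was open in both, at 86.9 and 78.9 CPM of cuts. The central 300 bases of the 35.2-fold peak are shown because this is the most germ-biased peak within 20 kb of *Nanos2*, read from the plus strand of GRCm38.p6 at chr7:18982596-18982895, outside annotated exons:
Nanos2 upstream peak: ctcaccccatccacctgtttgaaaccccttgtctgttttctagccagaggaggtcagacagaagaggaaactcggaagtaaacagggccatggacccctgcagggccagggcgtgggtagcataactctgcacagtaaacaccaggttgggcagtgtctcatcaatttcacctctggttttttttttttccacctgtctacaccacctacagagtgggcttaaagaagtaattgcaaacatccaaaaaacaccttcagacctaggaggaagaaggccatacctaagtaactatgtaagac
It held 2 CpG and none of the 5 motifs, against a median of 4 CpG over 109183 peak centres, of which 32.5% held a CCAAT box and 19.4% a GC box. Over all 7 genes, 10 of the 29 peaks within 20 kb were at least 2-fold more open in germ-like nuclei, and 1 was lower there beyond counting error, 17.8 kb inside *Tex14* at 0.53 (0.43 to 0.65).

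**Figure D5:**
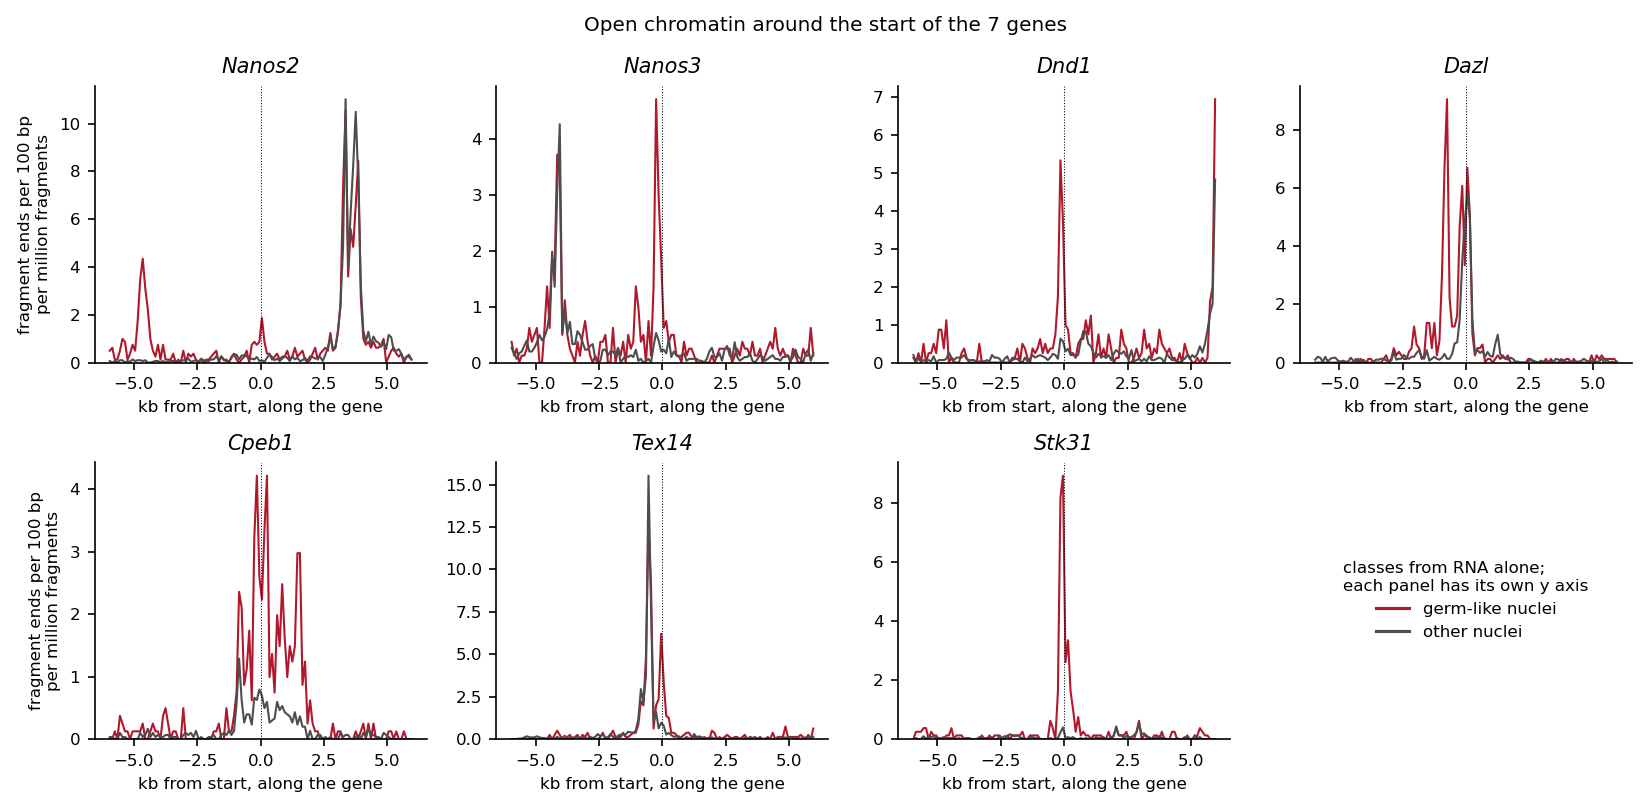
Fragment ends per 100 bp, scaled to the fragments of each class (y axes, each panel its own scale) over 12 kb around the start of each gene in the deposited table (x axes, kb along the gene). Germ-like nuclei rise well above the others at Stk31, Nanos3, Dnd1 and at -4.65 kb from Nanos2, and at Dazl and Tex14 a germ-like peak stands beside a shared one.

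Partners of the members were then described from lists of named genes. Of 15 subunits and adaptors of the CCR4-NOT deadenylase, 0 passed 4-fold in either direction, with a median log2 ratio of 0.22 beside 0.04 for all genes. *Cnot4* was highest (1.58-fold, 688 against 434 CPM) and *Btg1*, an adaptor, lowest (0.55). Among 20 poly(A) and translation partners 0 passed either. The highest were *Dazap2* (1.93-fold), the poly(A)-binding gene *Pabpc1* and its regulator *Paip2* (both 1.91-fold). The lowest were *Cpeb2*, a relative of *Cpeb1* (0.27), *Pabpc4* (0.59) and *Paip1* (0.68). Of 19 other germ cell RNA regulators 8 were at least 4-fold higher, led by *Meioc* (23.4), the *Dazl* relative *Boll* (22.0) and *Mov10l1* (21.7), against 10.9% of all genes. The RNA-binding genes *Msi1* (0.40), *Igf2bp2* (0.58) and *Msi2* (0.68) were the lowest named of this list. Of 15 Tudor domain genes 6 were, led by *Tdrd9* (133), *Tdrd12* (70.3) and *Tdrd5* (45.2), but 2 of the 6, *Tdrd9* and *Rnf17*, were also markers that named the class. The lowest Tudor genes were *Phf20l1* (0.87), *Tdrd3* (1.05) and *Snd1* (1.28). Of 13 midbody and bridge genes 1 was, *Rbm44* (17.0), which also stands among the RNA regulators. *Cep55* (2.20) and *Ect2* (1.91) followed, while *Aurkb* was 0.54, *Kif23* 0.62 and *Racgap1* 0.78. Of 19 tested fate genes 13 were, with *Tdrd1* counted here and among the Tudor genes, led by *Sycp1* (81.2), *Taf7l* (71.1) and *Piwil4* (56.0), and lowest were *Fgfr3* (0.34), *Kit* (0.57) and *Dmc1* (1.03).

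The genes most like each abundant member over the 13 joint clusters, by Pearson's r of log2(CPM + 1), were chosen from genes with at least 100 UMIs in all nuclei. *Esrp1* (0.99) came first for *Tex14*, *Fkbp6* (0.99) for *Dazl*, *Uchl1os* (0.98) for *Cpeb1* and *Gm13261* (0.99) for *Stk31*, with *Topaz1* among its next. For *Dnd1* the first was *Gtf2a1l* (0.97) and for *Nanos3* *Dlg3* (0.95), while *Nanos2* fell under the minimum of 100 UMIs in germ-like nuclei set for a member. These r rest on 13 points that share a library and, for the 4 abundant genes, on 1 high cluster.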

How the data were processed

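Nuclei of E14.5 testes were profiled by 10x multiome with 1 RNA and 1 ATAC library, so no comparison had replicates. The authors ran Cell Ranger ARC 2.0.1 on mm10 with default settings and deposited raw counts (UMIs of each gene, transposase cuts of each peak). From these, nuclei with over 500 genes, under 10% mitochondrial, under 10% ribosomal and under 0.5% haemoglobin UMIs, over 20% of fragments at peaks and 250 to 25000 fragments at peaks were kept (7667), and the top 470 (6.13%) by Scrublet score (scanpy 1.11.5) were removed. This replaced the study's doublet caller, and free RNA was not removed as the study did. Seurat 5.3.0 (R 4.3.3) clustered 2000 variable genes and peaks jointly at resolution 0.3, with the RNA of the members left out but not the peaks near them. Levels are UMIs of a class over all its UMIs (CPM). Intervals are exact 95% ones (Poisson, Clopper-Pearson or conditional binomial), from scipy 1.17.1. Ratios needed 20 UMIs or cuts to be counted as past a fold, and some printed ratios rest on fewer. A count of 0 was set to a floor of 3 only where genes were ranked. Named genes were at most the 3 highest and 3 lowest of each list with 100 UMIs or more, the 3 most alike, and the 5 largest in each direction between nuclei with and without *Nanos2*, of which 1 is not reported here. Cell cycle genes and the genes leading the 2 germ-like clusters, *Spocd1* and *Dnmt3l* among them, fall outside this rule and were added for comparison after their values were seen. Members and lists were chosen with earlier results of these data known. The scripts were tested on simulated data. In all, 20 alternatives were planned and 2 were added after the data were seen.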

Additional observations from a re-analysis of the deposited data

How the results depend on the processing

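There was 1 library per assay, so nothing could be left out as a replicate and sampling of embryos is not covered by any interval. No paired analysis was possible because each assay had 1 sample. The count of 6 members past 4-fold in RNA and of 4 promoter peaks past 2-fold stayed under every alternative run for it, apart from the 6 starts counted from fragment ends near RefSeq starts. The count of 0 pairs also stayed, but says little, since 15 of the 21 pairs could not have passed. The median log2 ratio of the members (5.70) was 4.24 with classes from chromatin alone, 5.95 from RNA alone, 5.92 against Sertoli-like nuclei, 5.44 without doublet removal, 6.52 with Scrublet's automatic threshold, 6.16 without nuclei over 50000 UMIs and 6.33 in nuclei of the same side in all 3 clusterings. The count of members past 1.5-fold by cell cycle share (1) was 2 with chromatin classes, with upper and lower quartiles and in nuclei of the same side in all 3 clusterings, and 0 with S genes alone. That by *Nanos2* UMI (1) was 2 with chromatin classes and with Scrublet's automatic threshold. The shares of all genes past 1.5-fold, 20% by cell cycle share and 51.2% by *Nanos2* UMI in the reported setting, were not counted for these alternatives. The causes were not tested. Of 180 single ratios, 126 moved by less than their counting interval, 54 moved by more and 11 crossed 1, all of them cell cycle ratios of *Nanos3*, *Stk31* and *Dnd1*, whose intervals in the reported setting include 1. In nuclei germ-like in all 3 clusterings that of *Stk31* (1.05) did not. Depth limits *Nanos2*, *Nanos3* and *Dnd1*, with 93 to 182 UMIs in germ-like nuclei.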
